A study of Mus musculus with 8 samples.

Results

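The 10 immediate early genes *Fos*, *Fosb*, *Jun*, *Egr1*, *Atf3*, *Ier3*, *Dusp1*, *Zfp36*, *Myc* and *Btg2* were described in dissected mouse liver, library by library. They were found by their symbols among the 18095 genes of the count table, and all 10 had a row. RNA was sequenced from livers of 12-week-old males of 2 genotypes, with 4 HFD Inpp4b-/- and 4 HFD WT mice. Inpp4b-/- is a deletion of the gene of the lipid phosphatase INPP4B. All 8 mice were offspring of dams put on the high-fat diet (HFD) before mating, and stayed on that diet until they were killed. The labels give C57BL/6 as the strain background and the study's methods give FVB. The hour of dissection and the order in which livers were taken are not given in the sources used here. Mice are called by the replicate number of their genotype.

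Immediate early genes are transcribed within minutes of a stimulus, from factors that are already present in the resting cell, and most of their mRNAs decay quickly. Serum response factor with its Ets partners, and CREB, are the best known activators, and both are switched on by MAP kinases, calcium or cAMP. In liver they are known for their surge after partial hepatectomy, feeding signals, ischemia and tissue handling, and several of them encode the feedback that ends the response.

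Libraries held 25893430 to 36662531 counts, and the lowest HFD Inpp4b-/- total, 32738435, was above the highest HFD WT total, 31427831. *Inpp4b*, the deleted gene, had 33, 10, 9 and 14 counts in the 4 libraries labelled HFD Inpp4b-/- and 6, 20, 5 and 8 in the 4 labelled HFD WT. The knockout label thus did not come with fewer counts (log2 ratio of mean CPM 0.49, exact permutation p = 0.486, two-sided, n = 4 per genotype), so each direction below rests on the labels. CPM is the count of a gene per 1e+06 counts of its library after TMM scaling. HFD WT replicate 4, the library with the lowest total, stood apart in most of the 10 genes. The results on the 10 genes that rest on it are given with and without it. Excepted are the SD and r within a single genotype, which were computed only with it. In bulk RNA, fewer cells of a type and less RNA per cell cannot be told apart.

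Promoter sequence was read from RefSeq windows of 8 of the 10 genes, and *Egr1* and *Myc* were not part of the search. The 4 stretches below are shown because each contains 1 of the searched motifs, and because *Fos*, *Zfp36* and *Btg2* had the highest correlations in the data. Each is the 250 bases before the RefSeq start, 5′ to 3′ on the strand of the gene, with the motif in capitals.
Fos, GRCm38.p6, chr12:85473640-85473889, plus strand: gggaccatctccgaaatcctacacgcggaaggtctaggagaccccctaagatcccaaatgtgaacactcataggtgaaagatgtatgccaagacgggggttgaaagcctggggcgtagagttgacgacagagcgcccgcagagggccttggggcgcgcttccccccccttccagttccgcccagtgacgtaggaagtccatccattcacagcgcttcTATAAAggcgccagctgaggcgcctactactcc
Zfp36, GRCm38.p6, chr7:28379229-28379478, minus strand: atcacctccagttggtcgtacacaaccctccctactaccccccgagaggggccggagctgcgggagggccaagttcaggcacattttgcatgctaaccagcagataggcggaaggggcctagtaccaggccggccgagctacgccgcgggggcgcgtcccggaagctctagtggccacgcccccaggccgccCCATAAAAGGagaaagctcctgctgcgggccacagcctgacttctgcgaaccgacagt
Btg2, GRCm38.p6, chr1:134079156-134079405, minus strand: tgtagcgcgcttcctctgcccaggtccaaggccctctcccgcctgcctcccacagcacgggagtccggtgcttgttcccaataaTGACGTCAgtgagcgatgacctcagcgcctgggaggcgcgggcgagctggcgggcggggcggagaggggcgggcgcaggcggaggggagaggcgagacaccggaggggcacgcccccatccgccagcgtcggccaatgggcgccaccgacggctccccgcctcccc
Dusp1, GRCm38.p6, chr17:26508473-26508722, minus strand: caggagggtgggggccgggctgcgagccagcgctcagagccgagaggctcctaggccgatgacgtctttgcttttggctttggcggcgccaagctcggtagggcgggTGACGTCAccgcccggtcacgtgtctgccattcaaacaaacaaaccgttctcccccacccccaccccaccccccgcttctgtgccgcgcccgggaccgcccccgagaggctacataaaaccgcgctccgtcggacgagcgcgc

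In *Fos* the capitals mark the TATA box letters TATAAA, which begin 33 bases before the start. In *Zfp36* they mark a CArG box, the core that serum response factor binds, beginning 58 bases before the start. In *Btg2* and *Dusp1* they mark the full cAMP response element TGACGTCA, beginning 166 and 143 bases before the start. The search covered both strands of 300 bases (250 before and 50 after the start), and no matched motifs overlapped. Of all 32851 RefSeq windows of this length, 13.6% held TATAAA, 1.63% a CArG box and 1.79% TGACGTCA. The AP-1 letters TGACTCA (5.2% of windows) and the Ets letters CCGGAAGT (3.89%) were in none of the 8. A match describes the letters only, and the absence of one says only that these letters are not in this window.

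Levels of the genes in liver spanned a wide range. Per kilobase of exon, the median of the 8 libraries was highest for *Zfp36*, at 15.6 CPM per kb. *Jun* followed at 5.93 and *Dusp1* at 5.88 CPM per kb, then *Btg2* at 1.5, *Myc* at 1.36 and *Egr1* at 1.18. *Atf3* stood at 0.729, *Ier3* at 0.553 and *Fos* at 0.405 CPM per kb, and *Fosb* was last at 0.0178. Genes next to each other in this order had ranges over the 8 libraries that overlapped, except *Fos* and *Fosb*. In all 8 libraries *Zfp36* was above *Jun*, *Dusp1* above *Btg2*, and *Fos* above *Fosb*. *Fosb* was below the expression filter, and 9 of the 10 genes were tested. The counts of genes overlapping on the other strand may be mixed in, since the strand setting of the counting is not given in the sources used here: 7.3% of the exon bases of *Jun* are shared with its antisense gene *Junos*, and 3.6% of those of *Zfp36* with *Gm44710*.

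**Figure D1:**
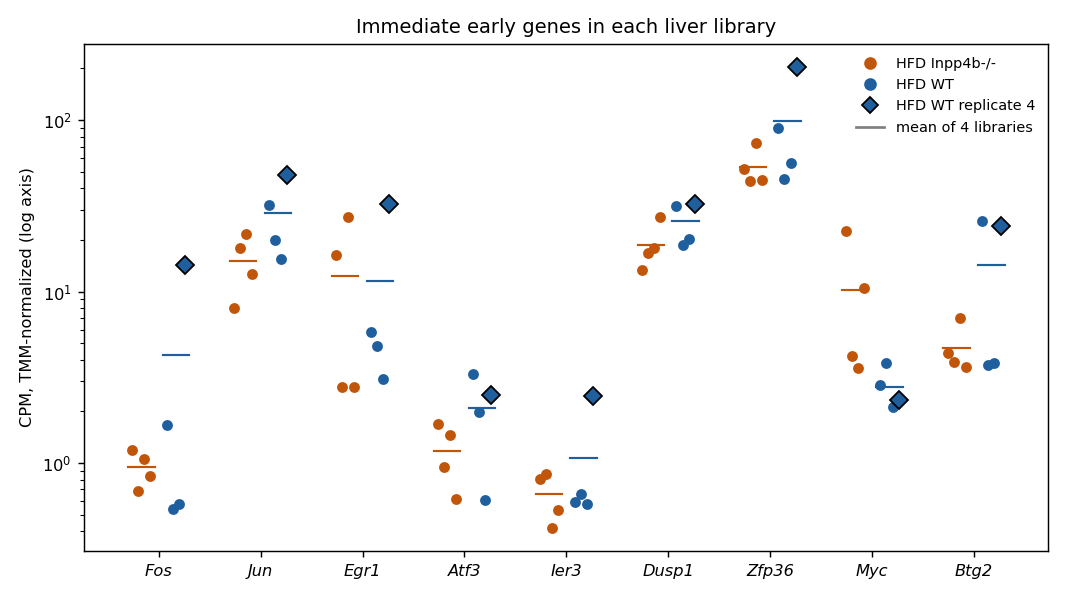
CPM of 9 immediate early genes in each library on a log axis, 4 HFD Inpp4b-/- (orange) and 4 HFD WT (blue) mice per gene, in order of replicate number from left to right. Short lines are means of 4 libraries and diamonds mark HFD WT replicate 4, which is the highest point for *Fos*, *Jun*, *Egr1*, *Ier3*, *Dusp1* and *Zfp36*. *Fosb*, which has a library at 0, is not drawn.

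The first group is the subunits of AP-1, the dimeric factor built of Fos, Jun and ATF proteins that carries many immediate early signals to later genes. *Fos* (ENSMUSG00000021250, chromosome 12 of GRCm38, 85473890 to 85477273) encodes the subunit whose induction is the classic sign of a recent stimulus. It stood at 1.19, 0.683, 1.06 and 0.842 CPM in HFD Inpp4b-/- replicates 1 to 4, and at 1.66, 0.535, 0.573 and 14.2 CPM in HFD WT replicates 1 to 4. Only HFD WT replicate 4 was high, with 369 reads against 17 to 45 in the other 7 libraries. That is 16.8 times the median of the other 7, and 8.54 times the next library. The other 3 HFD WT mice lay around the HFD Inpp4b-/- values, and the genotypes overlapped.

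*Fosb* (ENSMUSG00000003545, chromosome 7, 19302696 to 19310051), a close relative of *Fos*, was counted 4, 2, 4 and 0 times in HFD Inpp4b-/- replicates 1 to 4 and 3, 9, 1 and 10 times in HFD WT replicates 1 to 4. Its highest count was also in HFD WT replicate 4, though 10 reads and the 9 of HFD WT replicate 2 differ by less than counting error, and a count of 0 allows up to 3 reads (counting error only). The genotypes overlapped, and the difference of means was within the spread between mice (exact permutation p = 0.257, two-sided, n = 4 per genotype).

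*Jun* (ENSMUSG00000052684, chromosome 4, 95049034 to 95052222) encodes the partner that Fos proteins need to bind DNA. It read 7.99, 17.9, 21.8 and 12.6 CPM in HFD Inpp4b-/- replicates 1 to 4 and 31.9, 19.9, 15.4 and 47.6 CPM in HFD WT replicates 1 to 4. HFD WT replicates 4 and 1 were the highest libraries and HFD Inpp4b-/- replicate 1 the lowest, and the other 5 lay between 12.6 and 21.8 CPM. *Atf3* (ENSMUSG00000026628, chromosome 1, 191170296 to 191218039), a stress-induced repressor of the same family, read 1.69, 0.946, 1.45 and 0.618 CPM in the former and 3.32, 1.98, 0.606 and 2.5 CPM in the latter. Its highest values were again in HFD WT replicates 1 and 4, this time with replicate 1 first, and its lowest was in HFD WT replicate 3, so the HFD WT mice alone spanned the HFD Inpp4b-/- range.

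*Egr1* (ENSMUSG00000038418, chromosome 18), a zinc finger factor induced through serum response elements, read 16.4, 2.76, 27.1 and 2.78 CPM in HFD Inpp4b-/- replicates 1 to 4 and 5.79, 4.79, 3.07 and 32.4 CPM in HFD WT replicates 1 to 4. It was thus high in 3 mice, HFD WT replicate 4 and HFD Inpp4b-/- replicates 3 and 1, and stood at 2.76 to 5.79 CPM in the other 5. The mean was 12.3 CPM ± 11.8 (SD, n = 4) in HFD Inpp4b-/- and 11.5 CPM ± 14.0 (SD, n = 4) in HFD WT. In HFD Inpp4b-/- replicates 1 and 3 *Fos* was 1.19 and 1.06 CPM, far below the 14.2 CPM of HFD WT replicate 4. These were still the highest *Fos* values among the 4 HFD Inpp4b-/- mice.

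*Myc* (ENSMUSG00000022346, chromosome 15, 61985391 to 61990374), whose product drives growth genes together with Max, had its own order of libraries. It read 22.4, 4.2, 3.57 and 10.5 CPM in HFD Inpp4b-/- replicates 1 to 4 and 2.84, 3.81, 2.12 and 2.34 CPM in HFD WT replicates 1 to 4. HFD Inpp4b-/- replicates 1 and 4 were high, at 809 and 375 reads, and all 4 HFD WT libraries were at or under 3.81 CPM. HFD Inpp4b-/- replicate 3, at 3.57 CPM, was below HFD WT replicate 2, so the genotypes overlapped by that pair alone. In HFD WT replicate 4, where most of the other genes were highest, *Myc* had 61 reads, its lowest count, though not its lowest CPM.

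The remaining genes are linked to growth, cell survival, kinases or mRNA. *Btg2* (ENSMUSG00000020423, chromosome 1, 134075170 to 134079120), an antiproliferative adaptor of the CCR4-NOT deadenylase, read 4.36, 3.86, 7.01 and 3.62 CPM in HFD Inpp4b-/- replicates 1 to 4 and 25.7, 3.72, 3.81 and 24.1 CPM in HFD WT replicates 1 to 4. HFD WT replicates 1 and 4 were high together, and the other 2 HFD WT libraries lay within the HFD Inpp4b-/- range. *Ier3* (ENSMUSG00000003541, chromosome 17, 35821684 to 35822923), a short protein linked to cell survival, read 0.805, 0.867, 0.418 and 0.534 CPM in HFD Inpp4b-/- and 0.59, 0.661, 0.573 and 2.46 CPM in HFD WT. As with *Fos*, only HFD WT replicate 4 was high, at 64 reads against 13 to 33 in the other 7.

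*Dusp1* (ENSMUSG00000024190, chromosome 17, 26505590 to 26562128), a phosphatase that switches MAP kinases off, varied least. It read 13.3, 16.7, 17.9 and 27.2 CPM in HFD Inpp4b-/- replicates 1 to 4 and 31.6, 18.6, 20.3 and 32.5 CPM in HFD WT replicates 1 to 4, with HFD WT replicates 4 and 1 highest and HFD Inpp4b-/- replicate 4 next. *Zfp36* (ENSMUSG00000044786, chromosome 7, 28376784 to 28380253) encodes tristetraprolin, which binds AU-rich elements and speeds the decay of cytokine and immediate early mRNAs. It read 51.8, 44.4, 73.2 and 44.5 CPM in HFD Inpp4b-/- replicates 1 to 4 and 89.6, 45.6, 56.4 and 204 CPM in HFD WT replicates 1 to 4. HFD WT replicate 4 was highest, 2.28 times HFD WT replicate 1, which came next, and the genotypes overlapped.

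Between the libraries labelled HFD Inpp4b-/- and HFD WT, 0 of the 9 tested genes were called by edgeR's quasi-likelihood test (adjusted p under 0.10 with a change of more than 1.3 times). Over all 14866 tested genes 1.17% were called, so the count of 0 in 9 is near the background. At an unadjusted p under 0.05 there were 3 of the 9, *Jun*, *Myc* and *Btg2*, against 13.9% of all tested genes. Without HFD WT replicate 4 there was 1 of the 9 by edgeR, *Myc*, and the share over all genes was not computed for that fit. DESeq2 called 1 of the 10, *Myc*, against 3.8% of all 18095 genes. It gave *Fos* no p, so *Fos* could not be called, and both bases include genes without a p. The values of the genotypes overlapped in each of the 10 genes, where 8.72% of tested genes had no overlap.

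*Myc* had the log2 fold change with the smallest p, 1.87 ± 0.55 (SE, n = 4 per genotype), with a 95% interval of 0.65 to 3.09 and an adjusted p of 0.187 by edgeR, or 0.00958 by DESeq2. The adjusted p lay between 0.00958 and 0.433 over all alternatives, and leaving out HFD Inpp4b-/- replicate 1 took the value to 1.13. Over the 70 ways to split the 8 mice in 4 and 4, the exact permutation p of *Myc* was 0.0571, where 0.0286 is the smallest that can be had. *Jun* was at -0.93 ± 0.38 (SE, n = 4 per genotype, edgeR adjusted p = 0.314) and *Btg2* at -1.60 ± 0.63 (SE, n = 4 per genotype, edgeR adjusted p = 0.296). Negative values are lower in HFD Inpp4b-/-. By edgeR none of the 3 passed the threshold, *Myc* passed it by DESeq2, and for *Btg2* 2 of 4 HFD WT mice lay within the range of the other genotype.

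For *Fos* the difference was a matter of 1 library. With all 8 libraries its log2 fold change was -2.15 ± 0.97 (SE, n = 4 per genotype, edgeR adjusted p = 0.359), and without HFD WT replicate 4 it was 0.04 (edgeR adjusted p = 0.982). *Ier3* went from -0.69 to 0.11 and *Zfp36* from -0.89 to -0.26 without that library, while *Egr1* went from 0.09 to 1.43 (edgeR adjusted p = 0.450). *Jun* moved from -0.93 to -0.57, a ratio over 1.5, and *Btg2* from -1.60 to -1.23. *Atf3* at -0.83, *Dusp1* at -0.46 and *Myc* at 1.87 moved to -0.74, -0.32 and 1.80. Other libraries weighed more on *Atf3*, at -0.53 without HFD WT replicate 1, and on *Dusp1*, at -0.69 without HFD Inpp4b-/- replicate 4. Of the 9 tested genes 7 had negative values, with a median of -0.83 against 0.00275 over all tested genes. Without HFD WT replicate 4 there were 5 negative values and the median was -0.26, and those 5 (*Jun*, *Atf3*, *Dusp1*, *Zfp36* and *Btg2*) were negative in every fit that left out 1 library.

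**Figure D2:**
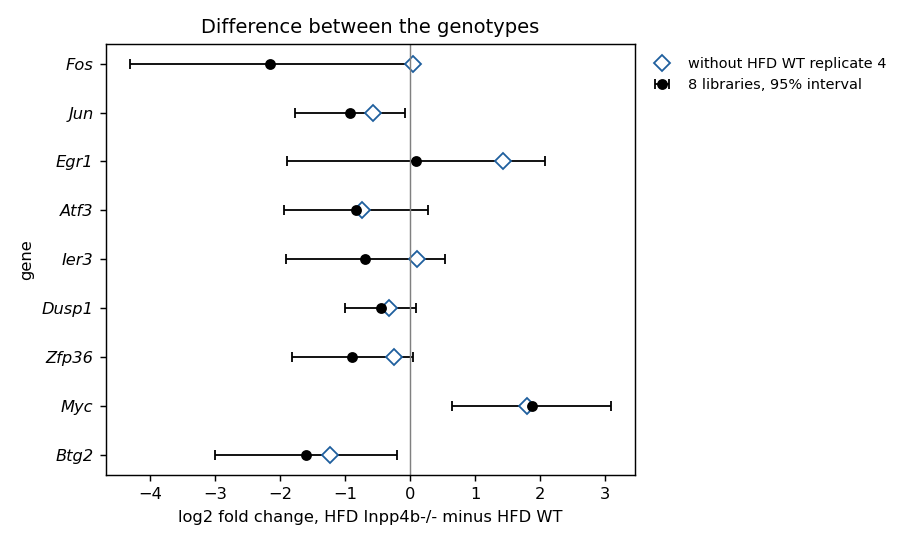
Log2 fold change of the 9 tested genes, HFD Inpp4b-/- minus HFD WT, by edgeR. Black points are all 8 libraries with 95% intervals, and open diamonds leave out HFD WT replicate 4, where *Fos* goes from -2.15 to 0.04 and *Egr1* from 0.09 to 1.43.

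The genes were also compared library by library. HFD WT replicate 4 was the highest of the 8 libraries for 7 of the 10 genes and for 6 of the 9 tested, while 17.9% of all tested genes were highest there. HFD WT replicate 1 was highest for *Atf3* and *Btg2*, HFD Inpp4b-/- replicate 1 for *Myc*, and the other 5 libraries for none. When each library was set against the median of the other 7 on the log2(CPM + 0.5) scale, 8 of the 9 tested genes were above it in HFD WT replicate 4, with a median distance of 1.44. A distance above 1 was found there for 6 of the 9 and for 2.7% of all tested genes. Of 14866 tested genes, 8 lay further above than *Fos* (distance 3.45), 32 further than *Egr1* (2.64), 36 further than *Btg2* (2.49) and 68 further than *Zfp36* (1.97).

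HFD WT replicate 1 came second, with 7 of 9 genes above the median of the other 7 and a median distance of 0.75. There only *Btg2* was beyond 1, at 2.58, and *Fos* was at 0.69. In HFD Inpp4b-/- replicate 1 *Egr1* (1.68) and *Myc* (2.49) were beyond 1 while *Jun* was at -1.27, the single tested gene of the 9 below -1 in any library. HFD Inpp4b-/- replicate 3 had *Egr1* alone (2.39), and HFD Inpp4b-/- replicate 4 had *Myc* alone (1.44). In HFD Inpp4b-/- replicate 2, HFD WT replicate 2 and HFD WT replicate 3 all 9 were within 1 of the median.

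**Figure D3:**
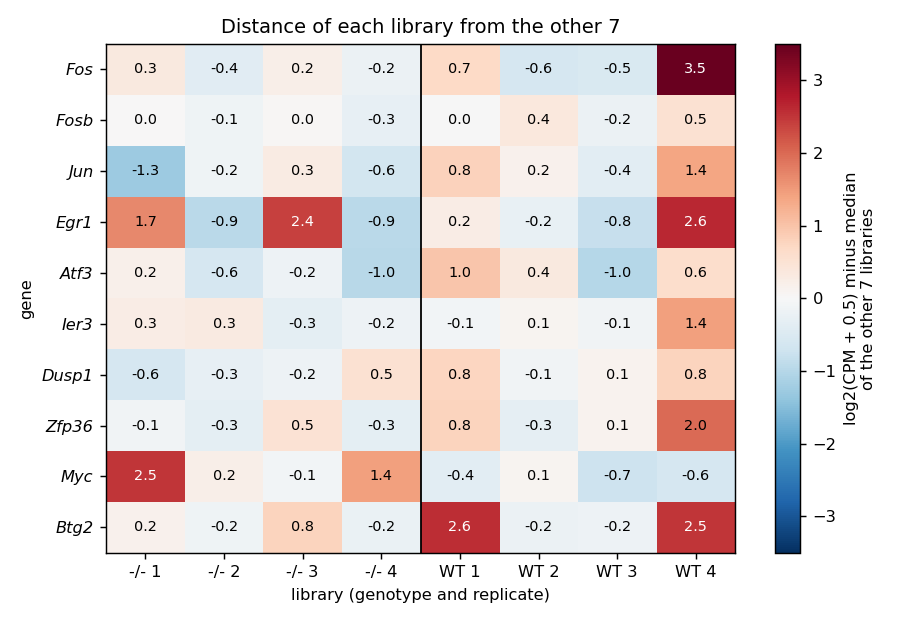
Distance of each of the 8 libraries (columns) from the median of the other 7 for the 10 genes (rows), on the log2(CPM + 0.5) scale, red above and blue below. The column of HFD WT replicate 4 is red for all genes but *Myc*, and *Egr1*, *Myc* and *Btg2* are high in further libraries.

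The genes were correlated across the 8 mice on the log2(CPM + 0.5) scale. Of the 45 pairs, 37 had a Pearson r above 0, the median r was 0.584, and 5 pairs had an r of at least 0.8, against 1.36% of the 110491545 pairs of tested genes. With exact permutation over all 40320 pairings (two-sided), 11 of the 45 pairs had p under 0.05 and 0 had an adjusted p under 0.05. All 36 pairs that do not involve *Myc* had positive r (median 0.638), and 8 of the 9 pairs with *Myc* had negative r. Pairs share genes and libraries, so they are not independent of each other.

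*Fos* and *Zfp36* had the highest r, 0.942 (n = 8, exact permutation p = 0.00444, adjusted p = 0.0999), with a Spearman rho of 0.69 (exact permutation p = 0.0694, adjusted p = 0.284). Without HFD WT replicates 1 and 4, the libraries farthest from the median of *Fos*, r was 0.439, so the relation rests on those mice. *Zfp36* and *Btg2* were at r = 0.884 (n = 8, exact permutation p = 0.00382, adjusted p = 0.0999) and rho = 0.786 (exact permutation p = 0.0279, adjusted p = 0.284), and their r without the same 2 libraries was 0.898. It was 0.994 within the 4 HFD Inpp4b-/- mice and 0.84 within the 4 HFD WT mice. These were the 2 pairs with the smallest p, and neither passed an adjusted p of 0.05.

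*Fos* and *Ier3*, at r = 0.883, were at -0.113 without HFD WT replicates 1 and 4, and their rho was 0.262. *Jun* with *Btg2* (r = 0.818) and *Jun* with *Zfp36* (r = 0.813) were at 0.877 and 0.8 without the 2 libraries farthest from the median of *Jun*. *Fos* and *Egr1* were at 0.676 over 8 mice, 0.774 without the 2 farthest, 0.871 within HFD Inpp4b-/- and 0.98 within HFD WT. The most negative pair was *Jun* and *Myc*, at r = -0.789 (n = 8, exact permutation p = 0.0172, adjusted p = 0.124) and rho = -0.643 (exact permutation p = 0.0962, adjusted p = 0.304), with -0.992 within HFD Inpp4b-/- and -0.115 within HFD WT.

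The genotypes differed in these values, though the difference was not tested. Over the 36 pairs without *Myc*, the median r was 0.772 within the 4 HFD WT mice, with 36 pairs positive, and 0.18 within the 4 HFD Inpp4b-/- mice, with 21 positive. Without HFD WT replicate 4 the median of these pairs over 7 mice was 0.302, with 26 positive. Over all 45 pairs it was 0.238, with 29 pairs positive and 2 pairs at or above 0.8. Over those 7 mice 5 of the 45 pairs had an exact permutation p under 0.05 (two-sided) and 0 had an adjusted p under 0.05. The r within HFD WT was not computed without that library, so genotype and that library cannot be told apart here.

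**Figure D4:**
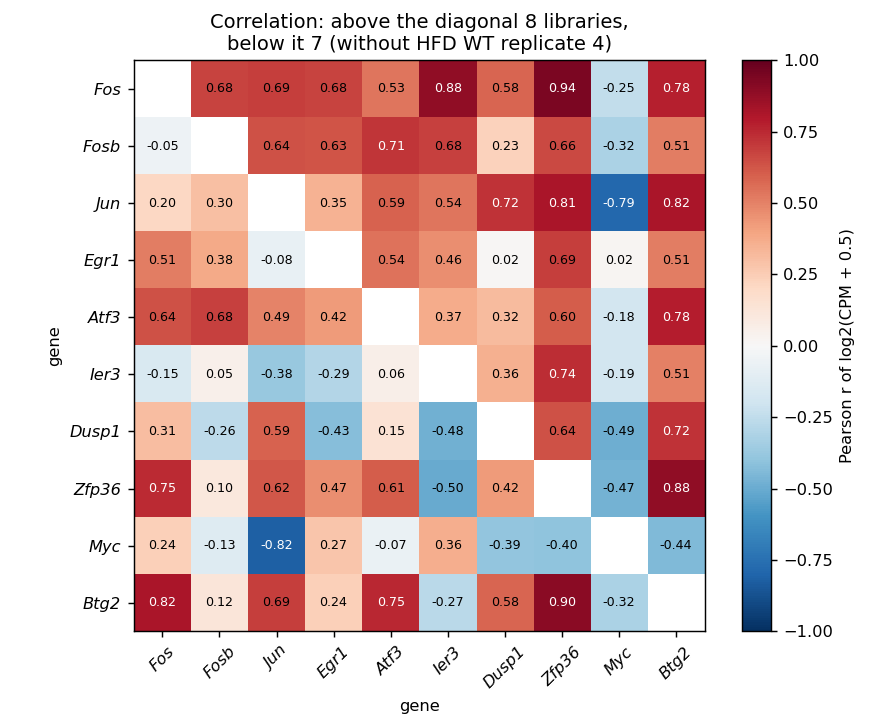
Pearson r of log2(CPM + 0.5) for each pair of the 10 genes, over all 8 libraries above the diagonal and over 7 libraries, without HFD WT replicate 4, below it. *Fos* with *Zfp36* is 0.94 above and 0.75 below, *Fos* with *Ier3* is 0.88 above and -0.15 below, and *Zfp36* with *Btg2* is near 0.9 in both.

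The spread between mice of the same genotype was large for these genes. The SD of log2(CPM + 0.5) within a genotype, pooled over both, was 1.51 for *Egr1*, 1.28 for *Fos* and 1.09 for *Btg2*, against a median of 0.239 over all tested genes. *Myc* followed at 0.851, *Zfp36* at 0.716, *Jun* at 0.662, *Atf3* at 0.629 and *Ier3* at 0.538, and *Dusp1* was lowest at 0.416. Ranked among all tested genes the 9 lay between percentile 81.7 (*Dusp1*) and 99.8 (*Egr1*), with a median of 97.2, and 8 of the 9 were above percentile 90. Without HFD WT replicate 4 the median was 94.6, the lowest 48.8, and 5 of the 9 were above percentile 90, as with a pseudocount of 0.1 CPM, and by the biological coefficient of variation there were 6. The SD was larger in HFD WT for 6 genes, among them *Fos* (1.79 against 0.23) and *Btg2* (1.49 against 0.39). It was larger in HFD Inpp4b-/- for *Egr1* (1.60 against 1.41), *Myc* (1.16 against 0.32) and *Dusp1* (0.421 against 0.411). These SDs by genotype were not computed without HFD WT replicate 4. For *Ier3*, 1 of the 6 (0.71 against 0.273), the other HFD WT libraries lay close together, at 0.59, 0.661 and 0.573 CPM. Low genes such as *Fos* and *Ier3* also carry counting error, and edgeR's biological coefficient of variation, which sets that aside, was 0.854 for *Fos* (2.47 times its trend), 0.824 for *Egr1* (3.88 times) and 0.515 for *Ier3* (1.15 times).

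**Figure D5:**
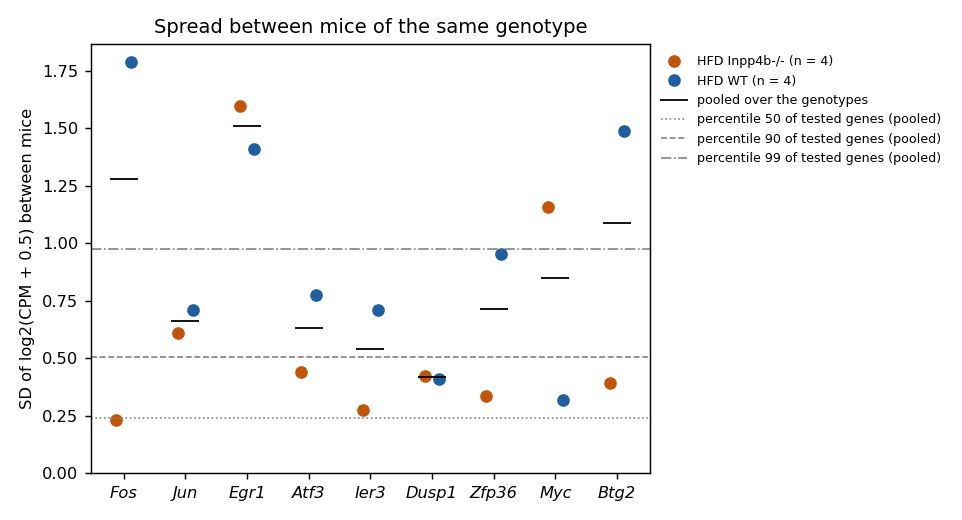
SD of log2(CPM + 0.5) between the 4 mice of each genotype for the 9 tested genes (orange HFD Inpp4b-/-, blue HFD WT, black lines pooled). Grey lines are percentiles 50, 90 and 99 of the pooled SD of all tested genes, at 0.239, 0.506 and 0.975, and *Fos*, *Egr1* and *Btg2* lie above percentile 99.

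Other genes of the same programme were set beside the 10. Of 11 further AP-1 and related bZIP subunits tested, 18 further immediate early transcription factors and 15 further immediate early effectors, 0, 0 and 2 were called by edgeR (background 1.17%), 2, 4 and 7 had an unadjusted p under 0.05 (background 13.9%), and their median log2 fold changes were -0.14, -0.31 and -0.47. *Junb*, another AP-1 subunit, read 24.0, 20.9, 27.7 and 23.1 CPM in HFD Inpp4b-/- replicates 1 to 4 and 56.1, 17.5, 26.6 and 204 CPM in HFD WT replicates 1 to 4 (r with *Fos* 0.966). HFD WT replicate 4 was far above the other 7, with HFD WT replicate 1 next. In the same lists *Mafk* (0.808) and *Atf4* (0.747), *Klf2* (0.911), *Irf1* (0.906) and *Ier5* (0.839), and *Ppp1r15a* (0.810), *Gadd45g* (0.733) and *Plk3* (0.690) were the genes with the largest r with *Fos*. Being picked by their r with *Fos*, they are no support for a shared pattern. Over the whole lists, 5 of 11, 8 of 18 and 5 of 15 tested genes were highest in HFD WT replicate 4, where 17.9% of all tested genes were.

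The called effectors were *Sik1* and *Sgk1*. *Sik1*, a kinase that holds back CREB coactivators and is itself a CREB target, read 15.7, 12.9, 24.6 and 22.9 CPM in HFD Inpp4b-/- replicates 1 to 4 and 49.2 ± 3.5 CPM (SD, n = 4) in HFD WT, with a lowest library of 45.01 CPM. It was lower in every HFD Inpp4b-/- library, with no overlap (log2 fold change -1.38 ± 0.19 SE, edgeR adjusted p = 0.0152, n = 4 per genotype), and its r with *Fos* was 0.325. *Sgk1*, a kinase induced by serum and glucocorticoids, was lower in HFD Inpp4b-/- by -0.58 ± 0.12 (SE) on the log2 scale (edgeR adjusted p = 0.0804, n = 4 per genotype), again with no overlap, and its r with *Fos* was 0.557. Both fell while *Fos*, *Jun* and *Egr1* did not pass the test, and the difference between these effects was not tested.

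Genes that act before or after the immediate early genes were mostly not called. None of the 28 upstream kinases and factors (median log2 fold change 0.007), 22 feedback regulators (-0.19), 8 Myc partners and rivals (-0.11), 15 mRNA deadenylation factors (-0.03) or 8 inducing cytokines (-0.57) passed, where 1.17% of all tested genes did. At an unadjusted p under 0.05 there were 2, 9, 1, 0 and 4 of them, against 13.9% of all tested genes. Among the cytokines, *Cxcl1* and *Ccl2*, picked after their values were seen, were highest in the 2 libraries where *Btg2* was high. *Cxcl1* read 113 CPM in HFD WT replicate 1 and 304 CPM in HFD WT replicate 4, against 4.09 to 23.4 CPM in the other 6. *Ccl2* read 3.39 and 13.9 CPM there, against 0.0281 to 0.694 CPM. Their part in the values of the immediate early genes was not tested.

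Stress lists moved with HFD WT replicate 4 in part. Of 12 heat shock genes, 10 were highest in that library, and their summed level was 5674 CPM there, 4336 CPM in HFD WT replicate 1 and 2081 to 3093 CPM in the other 6. All 12 had negative log2 fold changes (median -0.84), and 1 was called, *Hsp90aa1*, a chaperone of many kinases, at -0.83 ± 0.17 (SE, edgeR adjusted p = 0.0782, n = 4 per genotype). Of 11 hypoxia genes tested 1 was highest in that library. The summed level of the 12 in the count table, 1 of them below the filter, was 572 CPM there against 548 to 659 CPM in the other 7. *Ankrd37*, a HIF target, was the 1 called (2.01 ± 0.42 SE, edgeR adjusted p = 0.0804, higher in HFD Inpp4b-/-). Of 11 glucocorticoid targets 2 were highest in HFD WT replicate 4, and their sum peaked in HFD WT replicate 1, at 8537 CPM against 1699 to 4350 CPM in the other 7. What share these had in the result was not tested.

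Markers of liver cell types were also set beside the genes. The 6 hepatocyte markers, *Alb* among them, summed to 75930 to 80960 CPM in HFD WT and 78390 to 99330 CPM in HFD Inpp4b-/-, and were present in every library. In HFD WT replicate 4 the 12 Kupffer cell and macrophage markers (*Clec4f*, *Vsig4*) summed to 274 CPM, within the 93.3 to 301 CPM of the other 7 libraries. The 9 endothelial markers (*Pecam1*) summed to 206 CPM there against 154 to 202 CPM, the 10 stellate and mesenchymal markers (*Lrat*) to 218 against 187 to 264 CPM, and the 5 cholangiocyte markers analysed (*Krt19*) to 31.6 against 23.7 to 40.6 CPM. The 9 leukocyte markers analysed (*Ptprc*) summed to 14.3 CPM there against 7.21 to 13.8 CPM, and the 5 erythroid markers to 431 CPM against 114 to 346 CPM. None of the marker genes was called except *Hba-a2* (lower in HFD Inpp4b-/-, log2 fold change -2.92 ± 0.54 SE, edgeR adjusted p = 0.0570), whose reads can be split with the near-identical *Hba-a1*. The 2 adipose and pancreas markers analysed summed to 32.9 CPM in HFD WT replicate 4 and 41.5 to 59.8 CPM in the other 7. The endothelial, leukocyte and erythroid sums were thus highest in the same library as *Fos*, the endothelial and leukocyte sums only slightly. Their part in the high *Fos* was not tested.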

How the data were processed

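Liver RNA of 4 HFD WT and 4 HFD Inpp4b-/- mice was extracted with Tri Reagent and sequenced as 150-bp paired-end reads. The labels add Ribo-Zero depletion to the NEBNext library kit that the study's methods name. Genotype and replicate number came from the labels, diet and sex from the methods. The authors aligned reads to GRCm38 with HISAT2, counted them per gene with HTSeq, and deposited raw counts, which were used here. The normalized values they also deposited were not used. The deposited table held 18095 genes, and symbols, coordinates and exon lengths were taken from GENCODE M21, where every identifier had an entry. The number codes in the sample titles do not overlap between the genotypes, and the labels do not say what they stand for. Anything that follows these codes cannot be told apart from genotype. Nothing in the labels says how the mice were related, so p-values measure only the spread between these libraries.

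Counts were fitted over all genes with edgeR 4.0.16 (TMM, filterByExpr, glmQLFit and glmQLFTest, no covariate) in R 4.3.3. Calls needed an adjusted p (Benjamini-Hochberg) under 0.10 with a change of more than 1.3 times. Standard errors and 95% intervals come from that fit. Log values used log2(CPM + 0.5), or log2(CPM + 0.1) in the exact permutation tests of single genes (Python 3.11.15, scipy 1.17.1). Likeness to *Fos* or *Myc* was Pearson r over 8 libraries among tested genes with a mean of at least 1 CPM. Alternatives were DESeq2 1.42.0, other normalizations, filters, pseudocounts and thresholds, the replicate number as a block, and 1 library left out at a time. The procedure was tested on simulated counts. The 10 genes, the other gene lists and the motifs were chosen with earlier results of these data known.

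The genes named are the 10, the called genes of the other lists, the 3 genes of each immediate early list with the largest r with *Fos*, the 5 genes most like *Fos* and the 5 most like *Myc*, *Inpp4b*, and defining cell type markers. *Cxcl1*, *Ccl2* and the genes of the closing observations beyond these were picked after their values were seen. Listed genes with no row in the table were not analysed here.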

Additional observations from a re-analysis of the deposited data

Results flagged for a closer look

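Values in CPM were compared among the 4 libraries of each genotype. A value was singled out where its gap to the nearest other library took more of the range of the 4 than Dixon's limit allows. This was met by *Fos* at 14.17 CPM (next 1.659 CPM), *Egr1* at 32.41 CPM (next 5.79 CPM), *Ier3* at 2.458 CPM (next 0.6614 CPM) and *Slc20a1*, a phosphate transporter whose pattern was among the most like *Fos*, at 72.43 CPM (next 42.04 CPM). All 4 are the highest value of their group, and all 4 are in HFD WT replicate 4. If the values of a group are normally distributed, which was not checked for these CPM, chance flags about 1 in 20 groups. That is 3.3 of the 66 groups examined, where 4 were found. For the 10 immediate early genes alone it is 1 of 20 groups, where 3 were found. Those 3 are values of the same library and the groups are not independent, so the expected number is no test of them. *Slc20a1* was chosen for its likeness to *Fos*, so its value there is not separate from that of *Fos*.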

How the results depend on the processing

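No tested gene of the 10 was called under any edgeR alternative, and DESeq2 called 1, *Myc* (1.87, adjusted p = 0.00958). DESeq2 gave *Fos* no p. When each library was left out, *Fos* ranged from -2.53 to 0.0416, *Ier3* from -0.898 to 0.113 and *Egr1* from -0.65 to 1.43, and *Fos* and *Ier3* turned positive only without HFD WT replicate 4. *Egr1*, at 0.09, turned to -0.08, -0.65, -0.13, -0.18 and -0.22 without HFD Inpp4b-/- replicate 1, HFD Inpp4b-/- replicate 3, and HFD WT replicates 1, 2 and 3. The number of pairs with r of at least 0.8 was 8 on CPM with no log and 2 to 10 when each library was left out (2 without HFD WT replicate 4). The median r was 0.238 (without HFD WT replicate 4) to 0.665, and 0 to 1 pairs passed an adjusted p of 0.05 (1 without HFD WT replicate 3). The median percentile of the SD was 93.0 with a pseudocount of 0.1 CPM, 91.7 by the biological coefficient of variation, and 94.6 to 97.9 when each library was left out. HFD WT replicate 4 was the highest library for 7 of the 10 genes with library totals only as well, an alternative chosen after seeing the data. Of the fold changes of the 10 genes under the alternatives, 129 kept their direction and side of the threshold, 7 reversed and 1 was stronger. The 129 include *Fos* under DESeq2, which kept its direction but, with no p, had no side of the threshold.

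With a replicate block 0 of the 9 tested genes were called, and *Fos* was at -0.77, *Myc* at 1.52 and *Btg2* at -1.13. Same-numbered libraries did not deviate together (r of -0.194 to -0.05, against -0.0301 to 0.176 for other numbers). These values cannot decide whether the numbers pair the mice, since a pairing need not show in them. The block called 26 of all tested genes, against 174 without it. The number was 688 with DESeq2, 71 at an adjusted p under 0.05, and 53 (without HFD Inpp4b-/- replicate 2) to 345 (without HFD WT replicate 2). With 4 mice per genotype, differences as wide as the interval of *Egr1* (-1.89 to 2.08) could not be told from 0, and the counts of *Fosb* were too low for a level.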

Other observations

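The genes whose pattern over the 8 libraries was most like *Fos*, among 12530 candidates, were *Isyna1* (r = 0.990), which makes inositol phosphate, *Aldh18a1* (0.967), a proline synthesis enzyme, *Junb* (0.966), *Slc20a1* (0.964) and *Grb10* (0.962), an adaptor that restrains insulin receptor signalling. *Isyna1* read 9.88, 8.96, 10.5 and 9.72 CPM in HFD Inpp4b-/- replicates 1 to 4 and 13.3, 7.87, 8.89 and 28.6 CPM in HFD WT replicates 1 to 4. HFD WT replicate 4 was highest and HFD WT replicate 1 next, the order of *Fos*. *Grb10* read 6.68 CPM in HFD WT replicate 4 and 2.75 to 3.58 CPM in the other 7. These values are chosen for their likeness and describe 1 high library, and 3 of the 40 other immediate early genes among the candidates (tested, with a mean of at least 1 CPM), *Junb*, *Klf2* and *Irf1*, were in the first 100.

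Most like *Myc* were *Zbtb39* (r = 0.971), *Acbd6* (0.953), *Gm17029* (0.948), *Rwdd3* (0.939) and *Gadd45a* (0.923), a growth arrest gene induced by DNA damage and stress. They were picked by r, which does not measure the size of a change. In that order, the highest library was 1.41, 1.22, 3.22, 2.88 and 6.81 times the lowest, against 10.6 times for *Myc*. *Gadd45a* had 13.5 ± 8.2 CPM (SD, n = 4) in HFD Inpp4b-/- and 5.32 ± 1.7 CPM (SD, n = 4) in HFD WT. Like *Myc* it was highest in HFD Inpp4b-/- replicates 1 and 4 and its genotypes overlapped (log2 fold change 1.34 ± 0.40 SE, edgeR adjusted p = 0.193, n = 4 per genotype). *Gm17029* is an antisense gene, whose reads cannot be told from those of its partner without strand. *Gadd45g*, of the same family, read 61.4, 11.3, 4.28 and 23.0 CPM in HFD Inpp4b-/- replicates 1 to 4 and 29.4, 4.28, 3.503 and 105 CPM in HFD WT replicates 1 to 4. It was thus high both in the libraries where *Myc* was high and in those where *Btg2* was high. *Mt1*, a metallothionein among the glucocorticoid targets, read 427 CPM in HFD WT replicate 1 and 117 CPM in HFD WT replicate 4, against 7.55 to 29.7 CPM in the other 6.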
